A study of Mus musculus with 20 samples.

Results

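Cdh2 (N-cadherin, ENSMUSG00000024304) and Cdh11 (OB-cadherin, ENSMUSG00000031673) are cadherins of mesenchymal cells, measured here in cultured mouse nephron progenitor cells (NPCs). These 2 genes, of 31130 in the table of normalized counts, were taken as the rows whose identifiers the deposited comparison tables pair with the symbols Cdh2 and Cdh11, and both passed the filter on low values. The tables list only genes past the thresholds of the authors, so each had differed in at least 1 comparison of these same libraries. Messenger RNA was measured in 20 libraries in 8 groups. Primary NPCs came from E16.5 kidneys of embryos that carried Cas9-eGFP, and every library, CTRL included, came from such cells. They received sgRNA with mCherry mRNA and were kept for a knockout period of 48 h. They were then cultured for 24 h in CHIR at 1.25 µM (low) or 5 µM (high), and were sorted for mCherry. The paper describes low CHIR as the condition that maintains uninduced NPCs, and high CHIR as the one that induces them. CHIR is a small molecule that inhibits GSK3β and so raises Wnt/β-catenin activity. CTRL cells received sgRNA to GFP (n = 3 in each CHIR condition). β-catenin KO cells received sgRNA to Ctnnb1 (n = 3 in each), α-catenin KO cells sgRNA to Ctnna1 (n = 2 in each), and QCKO cells sgRNAs to 4 cadherins together, Cdh2, Cdh3, Cdh4 and Cdh11 (n = 2 in each). Each library is a bulk of sorted cells with mixed edits, not a clone. An edit that ends a protein need not remove its transcript, so the read counts do not measure how many alleles were cut.

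Classical cadherins are membrane proteins that bind the same cadherin on the neighboring cell when calcium is present. Their cytoplasmic tails bind β-catenin, which α-catenin links to the actin cytoskeleton. Cdh2 is a type I and Cdh11 a type II cadherin, and both are typical of mesenchymal cells. In the developing kidney, mesenchymal NPCs that receive a Wnt signal aggregate and turn into the epithelial renal vesicle, and the cadherins they carry change during that transition. The question addressed was how the messages of both genes varied with CHIR and with the loss of each component of the adhesion complex.

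Both genes are themselves targets in QCKO. Of the 4 guides used there, those to Cdh11, Cdh3 and Cdh4 are shown, and the guide to Cdh2 is not. The guide to Cdh11 is given because the Cdh11 transcript is the one that separated QCKO from CTRL, and the guides to Cdh3 and Cdh4 because those transcripts did not. The capitals mark the 10 bases at the 3′ end, which lie next to the PAM and pair with the target first. The sequences are those of the sgRNAs used in the study.
Cdh11: caccagcacaGGGUCAGGCC
Cdh3: ccgaugaagcCCGCUCGGUA
Cdh4: ccauccccagGCCCACCGUG
Where in its gene each guide cuts was not determined here.

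RefSeq places Cdh11 on chromosome 8 at 102632095 to 102785493 in GRCm38.p6, and Cdh2 on chromosome 18. The libraries held 18124772 to 28472412 reads in genes. Cdh2 had 926 to 5513 reads and Cdh11 had 630 to 7296, so counting error was small beside the range over all libraries: the fewest, 630 Cdh11 reads in QCKO high CHIR from label date 3, correspond to 589 normalized counts with an exact Poisson 95% interval of 544 to 637. It was not small within every group. The Cdh2 values of QCKO high CHIR, 1222 and 1236, had intervals of 1148 to 1300 and 1171 to 1305. Such intervals cover counting error only. CTRL high CHIR from label date 2 stood apart, as its normalized counts summed to 28329411 against 20081901 to 23674964 in the others. In the α-catenin KO, the targeted Ctnna1 transcript was at 3599 and 3790 normalized counts in low CHIR and at 3564 and 3621 in high CHIR, below all CTRL libraries (5817 to 10082). Of 8 markers of the labelled cell type, nephron progenitors, 7 had an identifier, and they summed to 15619 to 21896 normalized counts in CTRL low CHIR. The sample titles carry 3 dates, called label dates 1, 2 and 3 here, and the labels do not say what was done on them.

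By the group means Cdh2 was highest in CTRL low CHIR and lowest in QCKO high CHIR, with a wide spread between label dates. In CTRL low CHIR it was at 4920, 3857 and 2241 normalized counts on dates 1, 2 and 3. In CTRL high CHIR it was at 2439, 989 and 1359. The highest CTRL library in high CHIR thus lay above the lowest in low CHIR, and the ranges overlapped. In α-catenin KO, Cdh2 was at 3378 and 3613 in low CHIR and at 1447 and 2190 in high CHIR (dates 1 and 3). In QCKO it was at 2592 and 2071 in low CHIR and at 1222 and 1236 in high CHIR (dates 2 and 3). In both of these knockouts every high CHIR library was below every low CHIR library, as for 23.4% (α-catenin KO) and 28.5% (QCKO) of all genes tested. In β-catenin KO it was at 4806, 3277 and 1786 in low CHIR and at 2870, 2258 and 1864 in high CHIR, and the ranges overlapped.

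Ordered by the mean, Cdh2 was at 3673 ± 1349 normalized counts (SD, n = 3) in CTRL low CHIR, 3495 ± 166 (n = 2) in α-catenin KO low CHIR and 3290 ± 1510 (n = 3) in β-catenin KO low CHIR. QCKO low CHIR followed at 2332 ± 368 (n = 2) and β-catenin KO high CHIR at 2330 ± 507 (n = 3). The lowest were α-catenin KO high CHIR at 1818 ± 526 (n = 2), CTRL high CHIR at 1596 ± 754 (n = 3) and QCKO high CHIR at 1229 ± 10.2 (n = 2). The SD of 10.2 lay below the counting error of those libraries and is no measure of precision. The ranges of all neighbors in this order overlapped.

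The Cdh11 libraries of CTRL lay closer together within each CHIR condition than those of Cdh2. In CTRL low CHIR it was at 5112, 3594 and 4295 normalized counts on dates 1, 2 and 3. In CTRL high CHIR it was at 2092, 1883 and 1968, and these ranges did not overlap, as for 13.1% of all genes tested in that direction. In α-catenin KO it was at 6277 and 4565 in low CHIR and at 2008 and 1443 in high CHIR. In QCKO it was at 2519 and 1818 in low CHIR and at 1005 and 589 in high CHIR. Every QCKO library was below every CTRL library of the same CHIR condition, which held for 2.77% of all genes, and within both knockouts every high CHIR library was below every low CHIR library. In β-catenin KO it was at 7670, 4008 and 3513 in low CHIR and at 4169, 2427 and 3551 in high CHIR. There the CHIR conditions overlapped, and all 3 high CHIR libraries were above all CTRL high CHIR libraries, as for 14.8% of genes.

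The order of Cdh11 began with α-catenin KO low CHIR at 5421 ± 1210 normalized counts (SD, n = 2), β-catenin KO low CHIR at 5064 ± 2271 (n = 3) and CTRL low CHIR at 4334 ± 760 (n = 3). β-catenin KO high CHIR was at 3383 ± 883 (n = 3), QCKO low CHIR at 2169 ± 496 (n = 2), CTRL high CHIR at 1981 ± 105 (n = 3) and α-catenin KO high CHIR at 1726 ± 400 (n = 2). QCKO high CHIR came last at 797 ± 294 (n = 2), and its range lay below that of its neighbor, whereas all other neighbors overlapped. For both genes the libraries of date 1 tended to lie high: Cdh11 was above its group mean in 6 of 6 libraries of date 1, by 0.30 on average on the log2 scale, and Cdh2 in 4 of 6, by 0.31. Dates 2 and 3 had means of -0.07 and -0.18 for Cdh11 and of -0.03 and -0.21 for Cdh2.

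**Figure D1:**
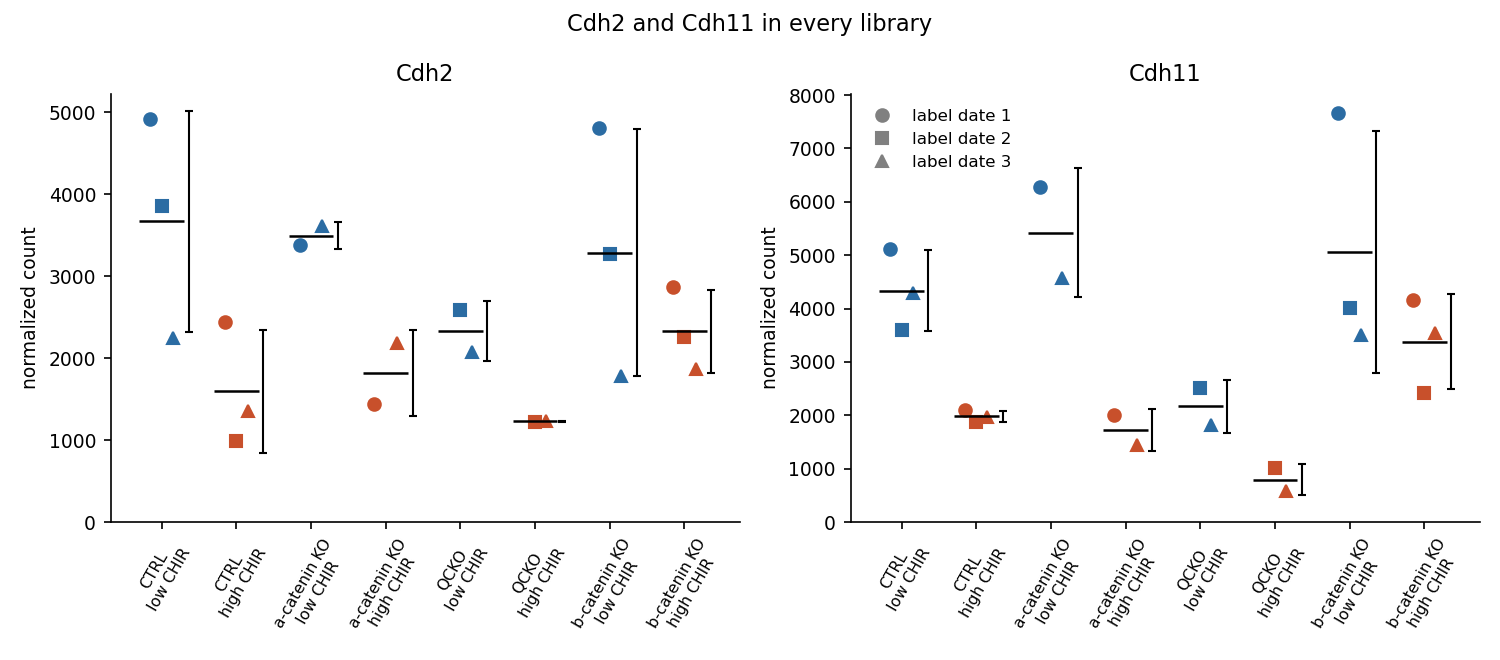
Normalized counts (vertical axis, linear from 0) of Cdh2 (left) and Cdh11 (right) in the 20 libraries by group (horizontal axis), with low CHIR in blue, high CHIR in orange and the label date given by the symbol. Horizontal lines are means and the bars beside them SD. Cdh11 in QCKO lies below CTRL in both CHIR conditions (1818 to 2519 against 3594 to 5112, and 589 to 1005 against 1883 to 2092), whereas the Cdh2 ranges overlap.

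High CHIR was accompanied by lower Cdh2 and Cdh11 transcripts in CTRL. Calls were made on log2(normalized count + 1), with limma, where the adjusted p was under 0.05 and the log2 fold change exceeded 0.5 in either direction. In CTRL, Cdh2 fell by 1.23 (SE 0.33, adjusted p = 0.032), to 42.6% of its low CHIR level, and Cdh11 fell by 1.12 (SE 0.23, adjusted p = 0.0087), to 46.2%. Both members were therefore called, where 10.7% of the 16516 genes tested were called in either direction and 5.82% were called lower. Their median was -1.17 against -0.01 for all genes tested. Both carry a symbol only because they had passed the authors' thresholds in comparisons of these same libraries. Their calls here and below, set beside the shares of all genes, thus describe preselected genes and support nothing about the pair. The Cdh2 call in CTRL was lost without any one of 4 libraries (CTRL low CHIR from date 1 or 2, CTRL high CHIR from date 2 or 3), with adjusted p between 0.090 and 0.125 and log2 fold changes between -1.17 and -0.94. It was also lost when only CTRL libraries entered the limma fit (adjusted p = 0.14). These p-values measure the spread between libraries of 3 label dates, which may be technical. In bulk RNA, fewer cells that express a gene and less message per cell cannot be told apart.

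Cdh11 fell with CHIR in the knockouts of α-catenin and of the cadherins as well. It was -1.65 on the log2 scale in α-catenin KO (SE 0.28, adjusted p = 0.0047 by limma), where 4.39% of genes were called (1.99% lower), and -1.47 in QCKO (SE 0.28, adjusted p = 0.0086), where 4.93% were called (2.31% lower). Cdh2 had estimates of -0.97 (SE 0.40, adjusted p = 0.27) and -0.91 (SE 0.40, adjusted p = 0.31) there and was not called. Neither gene's libraries overlapped between CHIR conditions in these knockouts, which with 2 libraries against 2 held for 23.4% and 28.5% of all genes in that direction. The Cdh11 call in α-catenin KO was lost without the low CHIR library of date 1 or the high CHIR library of date 3 (limma, adjusted p = 0.076 and 0.068), and the call in QCKO without the low CHIR library of date 2 or the high CHIR library of date 3 (limma, adjusted p = 0.116 and 0.125).

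Taken within label dates, Cdh11 was lower in high than in low CHIR in 7 of 7 pairs of CTRL, α-catenin KO and QCKO, at 31.6% to 52.4% of the low CHIR value. Cdh2 was lower in 7 of 7 as well, at 25.7% to 60.7%. The lowest of these Cdh2 values, 25.7%, came from CTRL on date 2, which holds the library that stood apart. The difference between the CHIR response in a knockout and that in CTRL was not called for either gene. In α-catenin KO it was 0.26 (95% interval -0.87 to 1.39) for Cdh2 and -0.54 (-1.33 to 0.26) for Cdh11. In QCKO it was 0.32 (-0.81 to 1.45) for Cdh2 and -0.36 (-1.16 to 0.44) for Cdh11. These intervals are wide, and responses that differ by up to those bounds could not be distinguished. No gene was called in either of these interaction tests by limma (0% of 16516), with 258 and 213 genes at an unadjusted p under 0.05, and none was called by edgeR or DESeq2.

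In β-catenin KO neither gene had a called response to CHIR. Cdh2 had a log2 fold change of -0.41 (SE 0.37, adjusted p = 1.0 by limma) and Cdh11 one of -0.53 (SE 0.29, adjusted p = 1.0). With 1 library left out at a time these ranged from -0.79 to -0.076 for Cdh2 and from -0.75 to -0.19 for Cdh11, nearest to 0 without the low CHIR library of date 1 and farthest without that of date 3. Only 0.018% of the 16691 genes tested were called in this knockout. Within dates, Cdh2 in high CHIR was at 59.7%, 68.9% and 104% of low CHIR on dates 1, 2 and 3, and Cdh11 at 54.4%, 60.6% and 101%. Date 3 thus gave almost equal values for both genes, whereas dates 1 and 2 gave lower values in high CHIR. The responses of β-catenin KO and CTRL differed by 0.83 for Cdh2 (95% interval -0.27 to 1.92, adjusted p = 0.60 by limma) and by 0.59 for Cdh11 (-0.28 to 1.45, adjusted p = 0.63), and 0.671% of genes were called in that interaction test.

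Against CTRL in high CHIR, β-catenin KO had higher estimates of both genes that did not pass the threshold. The log2 fold change was 0.63 for Cdh2 (SE 0.37, adjusted p = 0.28 by limma) and 0.74 for Cdh11 (SE 0.29, adjusted p = 0.11), where 10.5% of genes were called. With label date as a block, limma called Cdh11 (0.74, adjusted p = 0.031) and 17.3% of all genes. Within dates, Cdh11 in β-catenin KO high CHIR was at 199%, 129% and 180% of CTRL high CHIR, and Cdh2 at 118%, 228% and 137%. The 228% rests on the CTRL library of date 2 that stood apart, in which Cdh2 was at its lowest. Without that library the Cdh2 estimate was 0.33 (adjusted p = 0.68 by limma), and without the CTRL high CHIR library of date 1 it was 0.98 (adjusted p = 0.072). The Cdh2 libraries overlapped with CTRL, and those of Cdh11 did not. Cell state differed in the same comparison: the 7 progenitor markers with an identifier summed to 7581 to 15272 normalized counts in β-catenin KO high CHIR against 1478 to 2262 in CTRL, and limma called all 7 higher, where 7.67% of all genes were. These 7 have a symbol only because they had passed the authors' thresholds in these same libraries. All 7 were also called lower with CHIR in CTRL, whose high CHIR libraries are the reference here. The count of 7 is therefore a description only. The β-catenin KO libraries also differed among themselves in markers of induction, with Lef1 at 93.6 to 1020 and Wnt4 at 252 to 2387. The part of cell state in the Cdh2 and Cdh11 values was not tested. In low CHIR the log2 fold changes were -0.20 for Cdh2 and 0.15 for Cdh11 (adjusted p = 0.99 for both by limma), and 0.0659% of genes were called.

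**Figure D2:**
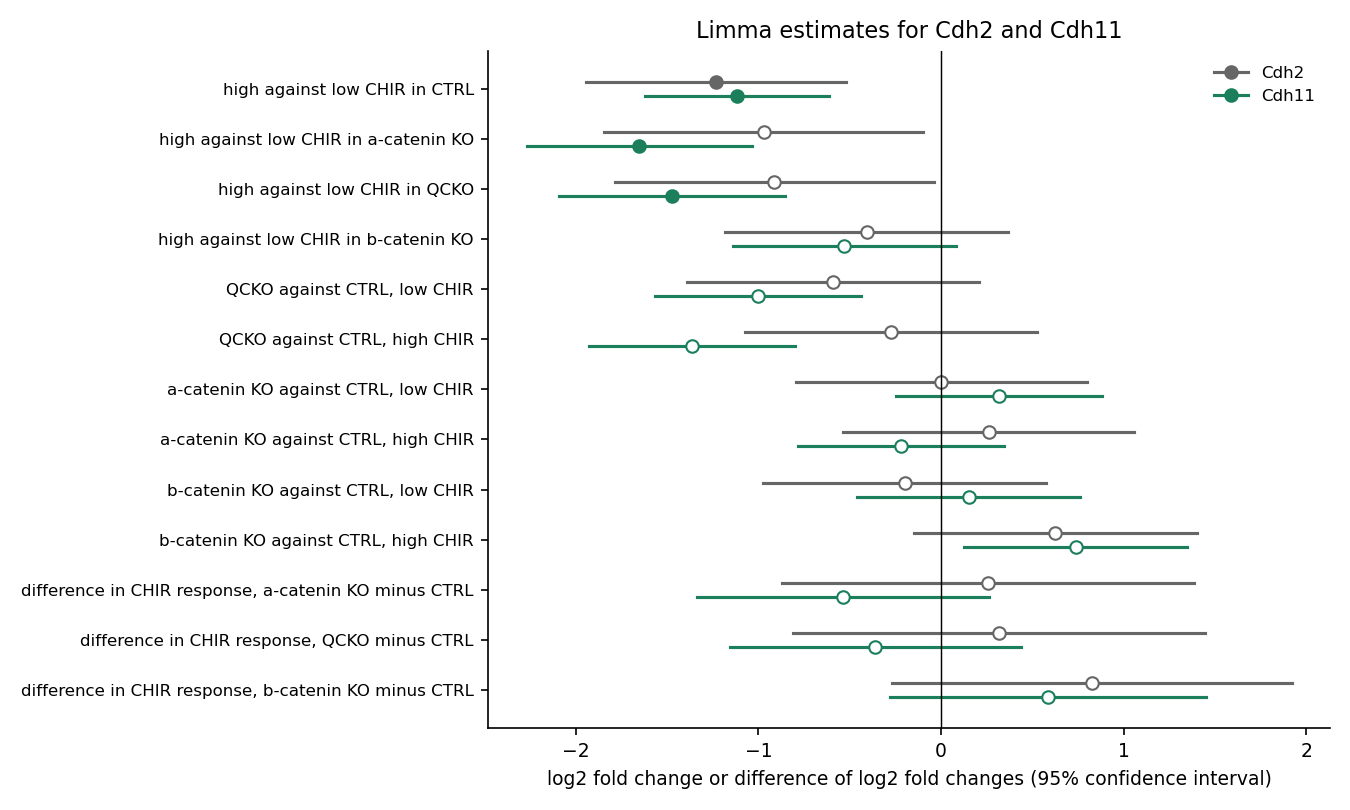
Limma estimates for Cdh2 (grey) and Cdh11 (green) in 13 comparisons, with 95% confidence intervals (horizontal axis, log2 fold change, or the difference of 2 log2 fold changes in the lowest 3 lines). Filled points were called. Those are Cdh2 in CTRL, and Cdh11 in CTRL, α-catenin KO and QCKO, all for high against low CHIR.

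QCKO was the comparison in which both genes were targeted, and of the pair only the Cdh11 transcript separated its libraries from CTRL. In low CHIR the log2 fold change of Cdh11 was -1.00 (SE 0.26, 49.9% of CTRL), and in high CHIR it was -1.36 (SE 0.26, 38.9% of CTRL). After adjustment over all genes limma did not call either (adjusted p = 1.0 and 0.55), and it called 0.00605% of genes in low CHIR, which is the single gene 6030452D12Rik, and 0% in high CHIR. In high CHIR, 1444 genes had an unadjusted p under 0.05, edgeR called none, and DESeq2 called 7 genes (0.0424%). Cdh11 was the only one of those 7 that was lower in QCKO (log2 fold change -1.33, adjusted p = 0.016 by DESeq2). Ordered by the unadjusted limma p, Cdh11 stood 9th of 16516 genes in low CHIR and 4th in high CHIR, whereas Cdh2 stood 1004th and 9827th.

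Cdh2 in QCKO had log2 fold changes of -0.59 (SE 0.37, 95% interval -1.39 to 0.21) in low CHIR and -0.27 (SE 0.37, -1.07 to 0.52) in high CHIR. Its libraries overlapped with CTRL in both. The low CHIR value was -0.34 without the CTRL library of date 1 and -0.91 without that of date 3. A fall to below 38.2% of CTRL in low CHIR, or to below 47.6% in high CHIR, lies outside these intervals. The libraries of both CHIR conditions were then combined in an exact two-sided permutation test that exchanged the labels QCKO and CTRL within each condition (100 splits, smallest possible p = 0.01). The mean log2 difference of Cdh11 was -1.18, which is 44.1% of CTRL, with an exact p = 0.01. That of Cdh2 was -0.43, or 74.1% of CTRL, with an exact p = 0.21, and it was -0.13 (exact permutation p = 0.625, smallest possible p = 0.125) when taken within label dates. With 1 library left out at a time, the Cdh2 value of -0.43 ranged from -0.59 (without CTRL low CHIR of date 3) to -0.25 (without CTRL high CHIR of date 1). QCKO has no library of date 1. These were 2 of 4 such exact tests, and their p-values are unadjusted. The tests exchanged labels in each CHIR condition or knockout separately, although the same label dates supplied libraries to more than 1 of them. Libraries that share a date were thus treated as independent, and the p-values may be too small. The same CTRL libraries served all comparisons of knockouts with CTRL.

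Within label dates, Cdh11 in QCKO was at 70.1% (date 2) and 42.3% (date 3) of CTRL in low CHIR and at 53.4% and 30.0% in high CHIR, lower in 4 of 4 pairs. Date 3 gave the lower value in both conditions. For Cdh2 the shares of CTRL were 67.2% and 92.4% in low CHIR, then 124% and 91.0% in high CHIR, lower in 3 of 4. The value of 124% rests on the CTRL library that stood apart, in which Cdh2 was at its lowest. With signs exchanged over these 4 pairs, the mean Cdh11 difference was -1.10 with an exact permutation p = 0.125, the smallest that 4 pairs allow. The pairs come from dates 2 and 3 only, each used in both CHIR conditions, so they are not 4 independent pairs and this p-value may be too small.

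**Figure D3:**
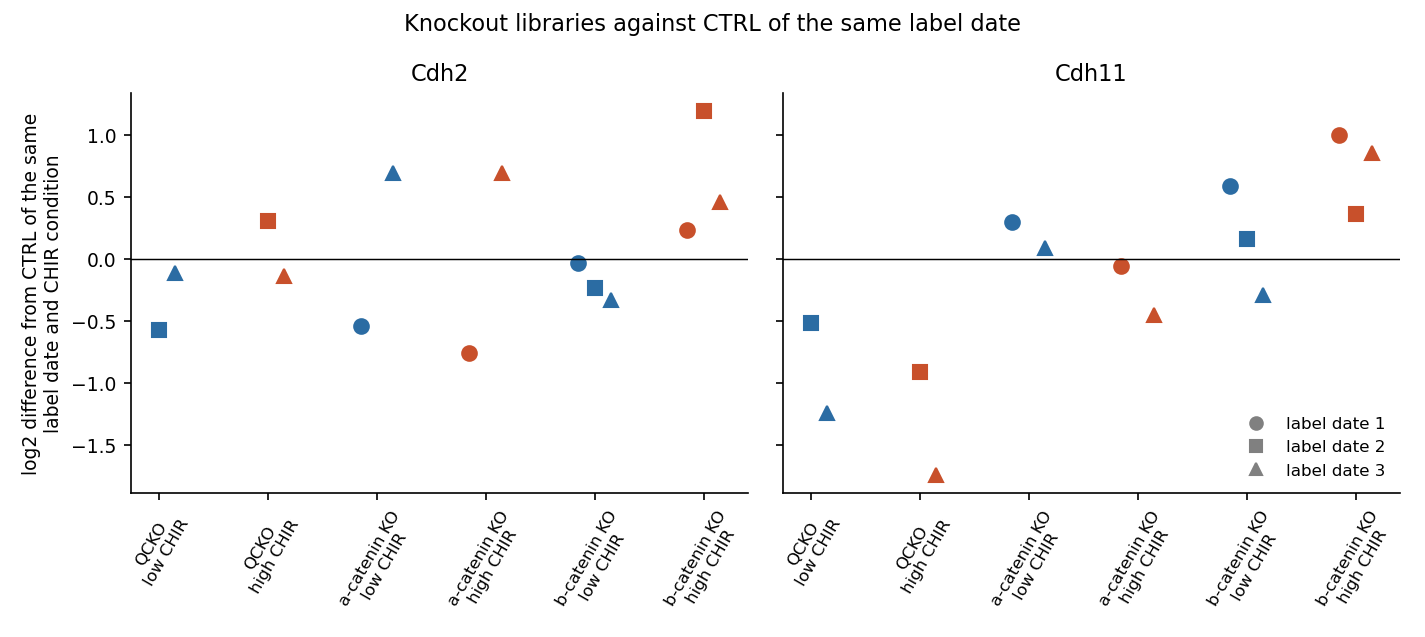
Log2 difference (vertical axis) of each knockout library from the CTRL library of the same label date and CHIR condition, for Cdh2 (left) and Cdh11 (right), with low CHIR in blue and high CHIR in orange. Cdh11 lies below 0 in all 4 QCKO pairs (-1.74 to -0.51), Cdh2 in 3 of 4 (-0.57 to 0.30).

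The other targeted cadherins were not called lower in QCKO. Cdh4 (R-cadherin) was at 1796 and 2512 normalized counts in QCKO low CHIR against 1888 to 2494 in CTRL, with a log2 fold change of -0.08 (SE 0.21, adjusted p = 1.0 by limma). In high CHIR it was at 6666 and 10276 against 7647 to 8840, with a log2 fold change of 0.04 (SE 0.21, adjusted p = 0.96). Cdh3 (P-cadherin) had log2 fold changes of 0.42 (SE 0.44, adjusted p = 1.0) in low CHIR and 0.07 (SE 0.44, adjusted p = 0.96) in high CHIR by limma. Of the 4 guides delivered together, the one to Cdh11 was thus the only one whose transcript lay below CTRL in every QCKO library.

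In α-catenin KO, in which the cadherins were not targeted, neither gene was called against CTRL, and the libraries overlapped for Cdh2 and for Cdh11 in both CHIR conditions. In low CHIR the log2 fold change of Cdh2 was 0.00 (95% interval -0.80 to 0.80) and that of Cdh11 was 0.32 (-0.24 to 0.88). In high CHIR they were 0.26 (-0.54 to 1.06) and -0.22 (-0.78 to 0.35). Limma called 0% of genes in either condition, with 109 and 928 genes at an unadjusted p under 0.05, and edgeR called none. DESeq2 called Ctnna1 alone in low CHIR, and Ctnna1, Serpinb7, Cpm and ENSMUSG00000032327 in high CHIR. These genes and 6030452D12Rik are named because so few were called, after their values were seen. Date by date, Cdh2 went in opposite directions: it was at 68.7% and 59.3% of CTRL on date 1 (low and high CHIR) and at 161% in both conditions on date 3. Cdh11 was at 123% and 96.0% on date 1 and at 106% and 73.3% on date 3.

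The relation of the genes to each other was followed as the ratio of Cdh11 to Cdh2 normalized counts, which is compared between libraries only, since gene length was not corrected for. It was 1.04, 0.93 and 1.92 in CTRL low CHIR on dates 1, 2 and 3 and 0.86, 1.90 and 1.45 in CTRL high CHIR. In QCKO it was 0.97 and 0.88 in low CHIR, then 0.82 and 0.48 in high CHIR. The lowest ratio of all libraries was thus in QCKO high CHIR on date 3, and QCKO overlapped with CTRL in low CHIR and lay below it in high CHIR. Over both CHIR conditions the log2 ratio was lower in QCKO than in CTRL by a mean difference of -0.75, with an exact two-sided permutation p = 0.06 (100 splits, smallest possible 0.01). Between CHIR conditions, over CTRL, α-catenin KO and QCKO, the mean difference was -0.37 (exact two-sided permutation p = 0.22, 720 splits), with a lower ratio in high CHIR in 6 of 7 pairs of the same label date. The exception was CTRL on date 2, where the ratio in high CHIR was 204% of that in low CHIR.

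**Figure D4:**
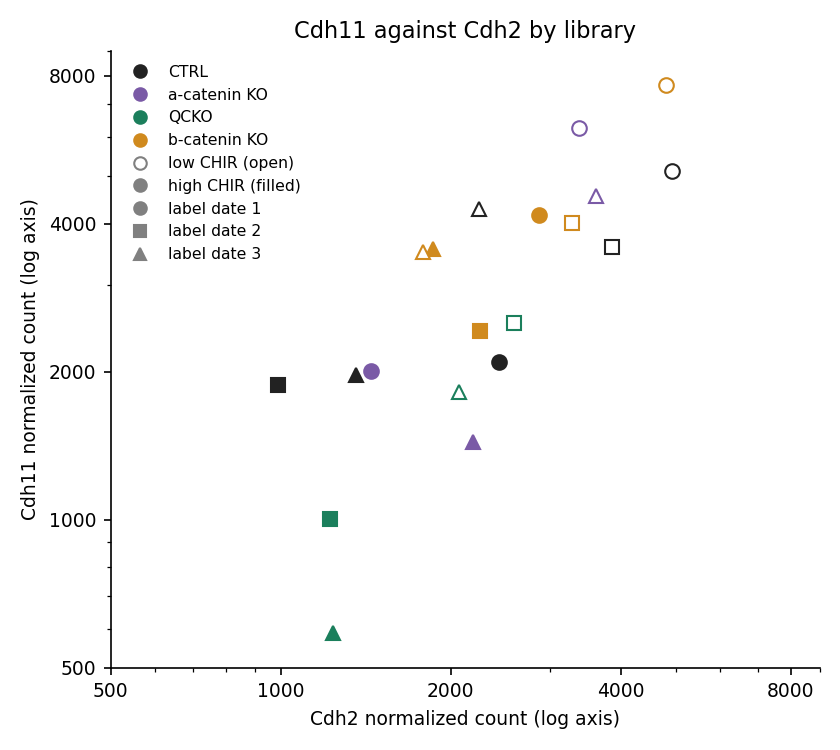
Cdh11 against Cdh2 normalized counts (both axes log) in the 20 libraries, colored by knockout, with open symbols for low CHIR, filled symbols for high CHIR and the shape giving the label date. The 2 QCKO high CHIR libraries (green, filled) lie lowest on the Cdh11 axis, at 1005 and 589, while their Cdh2 values (1222 and 1236) lie within the CTRL high CHIR range of 989 to 2439.

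Other genes could be read by symbol only where they had passed the thresholds of the authors in a comparison of these same libraries, so the counts and medians of the gene lists that follow describe genes already selected for a difference and support nothing about the lists. Among the type I cadherins other than Cdh2, all 4 listed genes had an identifier. Cdh3 rose by 2.70 on the log2 scale in CTRL (SE 0.39, adjusted p = 0.00081 by limma), from 277 to 726 normalized counts in low CHIR to 2557 to 3720 in high CHIR. Cdh4 rose by 1.84 (SE 0.19, adjusted p = 6.5e-05), from 1888 to 2494 to between 7647 and 8840. Both also rose in α-catenin KO and in QCKO. Cdh15 (M-cadherin) fell by 2.42 in CTRL (SE 0.43, adjusted p = 0.0031), and Cdh1 (E-cadherin), the cadherin of epithelia, had a log2 fold change of -1.95 that was not called (SE 0.90, adjusted p = 0.18), with 34.8 to 448 normalized counts in low CHIR. In CTRL, then, 2 of the 4 rose, 1 fell and 1 did not pass, where 4.84% of all genes were called higher and 5.82% lower, with a median of -0.05 against -0.01 for all genes tested. Cdh2 and Cdh11 moved opposite to Cdh3 and Cdh4 in CTRL. None of the 12 other type II cadherins on the list, the family of Cdh11, had an identifier, so they were not analysed here.

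**Figure D5:**
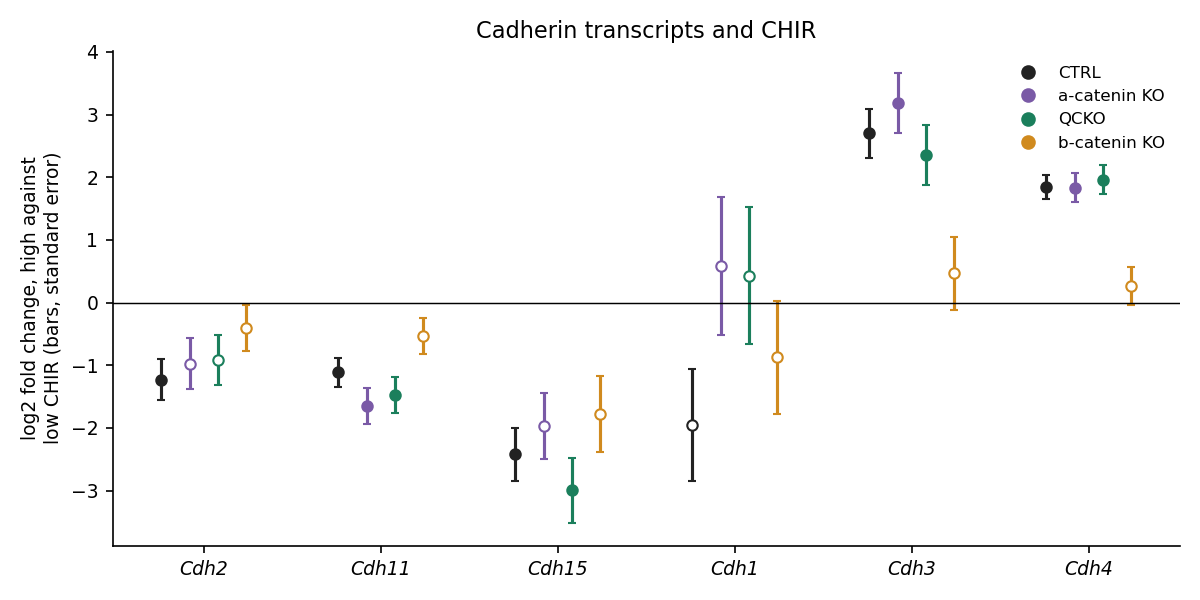
Log2 fold change of high against low CHIR (vertical axis, bars are SE) for 6 cadherins in the 4 knockout groups, filled where called. Cdh2 and Cdh11 lie below 0 in all groups (-1.23 and -1.12 in CTRL), whereas Cdh3 and Cdh4 lie above 0 (2.70 and 1.84 in CTRL).

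Of the catenins and linkers to the cytoskeleton, 3 of 11 listed genes had an identifier. Ctnnd2 (δ-catenin) rose with CHIR in CTRL by 2.50 (SE 0.40, adjusted p = 0.0016 by limma), Pkp4, a catenin of the p120 family, fell by 0.71 (SE 0.20, adjusted p = 0.040), and Ctnna1 was at -0.29 (SE 0.17, adjusted p = 0.31). Ctnna1, the target of the α-catenin guide, was 1.30 and 1.05 lower in the estimates for α-catenin KO in low and high CHIR, without passing the adjustment over all genes (limma, adjusted p = 0.31 and 0.47). Of the genes of cadherin shedding and of cadherin partners, 1 of 8 had an identifier. That gene, Furin, a protease that removes the propeptide of cadherins, was at -0.25 in CTRL (SE 0.27, adjusted p = 0.58).

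Of 9 genes of the mesenchymal state, 4 had an identifier, and in CTRL 2 fell with CHIR and 2 did not pass, where 5.82% of all genes were called lower. The median of these 4 selected genes was -2.00, against -0.01 for all genes tested. Snai2 fell by 3.18 (SE 0.36, adjusted p = 0.00013 by limma), from 2047 to 4184 normalized counts to between 219 and 521. Zeb1 fell by 2.73 (SE 0.38, adjusted p = 0.00057). Both encode transcriptional repressors of epithelial genes. Vim, which encodes the intermediate filament vimentin, was at -1.04 (SE 0.34, adjusted p = 0.069) and Snai1 at -1.27 (SE 0.67, adjusted p = 0.25). Snai2 and Zeb1 also fell in α-catenin KO and QCKO, as Cdh11 did. In β-catenin KO high CHIR both were higher than in CTRL, Zeb1 by 2.61 (SE 0.39, adjusted p = 0.00064) and Snai2 by 2.06 (SE 0.45, adjusted p = 0.010). For Zeb1 the response to CHIR itself differed between β-catenin KO and CTRL, by 2.54 (adjusted p = 0.042). In QCKO against CTRL none of the 4 was called in either CHIR condition, and their medians were 0.20 in low CHIR and 0.19 in high CHIR against 0.02 for all genes in both.

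The state of the cells changed along with both cadherins. In CTRL, Six2 and Cited1, which mark uninduced NPCs, had log2 fold changes of -4.20 and -3.73 with CHIR (limma, adjusted p = 1.6e-06 and 5.3e-06), and Wnt4, Lef1 and Jag1, which mark induction, rose by 6.33, 4.09 and 4.12 (adjusted p = 2.9e-07, 2.9e-07 and 0.0031). The 7 progenitor markers with an identifier summed to 1478 to 2262 normalized counts in CTRL high CHIR. In QCKO they summed to 15403 to 15695 in low CHIR and to 1132 to 1444 in high CHIR. None of the 5 state genes was called between QCKO and CTRL by limma, which called 0.00605% of all genes in low CHIR and 0% in high CHIR. In QCKO high CHIR, Six2 was at 27.8 to 44.0 normalized counts, below the 64.1 to 83.8 of CTRL without overlap, as for 13.3% of all genes in that direction. Its log2 fold change there was -1.02 (SE 0.29, adjusted p = 0.55 by limma), against 0.01 (SE 0.29, adjusted p = 1.0) in low CHIR. Its part in the Cdh11 difference was not tested.

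Markers of other cell types could be read only for the few with an identifier, which had likewise passed those thresholds in these libraries. The single stromal marker with an identifier, Meis1 (1 of 10 listed), was at 2143 to 2961 normalized counts in CTRL low CHIR and at 750 to 1090 in CTRL high CHIR. In QCKO it was at 1740 to 3220 and at 890 to 1091, overlapping with CTRL in both conditions. The 5 of 10 ureteric markers with an identifier (Wnt11, Gata3, Hoxb7, Krt8 and Cdh1) summed to 314 to 1286 in CTRL low CHIR, 875 to 1057 in CTRL high CHIR (overlapping), 586 to 824 in QCKO low CHIR and 1827 to 2113 in QCKO high CHIR. In α-catenin KO high CHIR they summed to 1277 to 2297, so the high CHIR libraries of both knockouts lay above CTRL, as did those of 13.3% (QCKO) and 9.1% (α-catenin KO) of all single genes. Tek (1 of 8 endothelial markers) was at 0 to 3.25 in CTRL low CHIR and 89.7 to 177 in CTRL high CHIR, and Laptm5 (1 of 8 leukocyte markers) at 26.0 to 52.9 and at 0 to 2.27. In QCKO, Tek was at 0.867 to 2.89 in low CHIR and at 221 to 357 in high CHIR, and Laptm5 at 38.2 to 79.1 and at 2.41 to 8.42. Tek thus lay above CTRL in QCKO high CHIR without overlap, as for 13.3% of all genes, and Cdh11 was lowest there. Laptm5 was near the floor in high CHIR. Its lowest QCKO value, 2.41, and its highest CTRL value, 2.27, were only a few reads each, so they do not separate the groups. In α-catenin KO high CHIR, Tek was at 92.7 to 383 and Laptm5 at 0 to 39.9, overlapping with CTRL. The part of other cell types in the Cdh2 and Cdh11 levels was not tested.

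The genes with a mean of at least 100 normalized counts that were most like each member were found by the root mean square difference of log2 profiles, each centered on its own mean, over the 20 libraries and 10923 genes. The libraries share label dates and CHIR conditions, so this is a description. Nearest to Cdh2 were ENSMUSG00000025026, Rab23, B3glct, Rcor3 and ENSMUSG00000024845, at 0.23 to 0.25, where the profile of Cdh2 itself varied by 0.65 about its mean. Nearest to Cdh11 were Pwwp3b, ENSMUSG00000023191, Abcg2, St3gal4 and Lix1l, at 0.40 to 0.45, where Cdh11 varied by 0.88. The members differed from each other by 0.56. Cdh2 was the 51st nearest gene to Cdh11, and Cdh11 the 1219th nearest to Cdh2.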

How the data were processed

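Cells from E16.5 kidneys were sorted, and their RNA was amplified with the SMARTer Ultra Low kit and sequenced in pairs of reads. The submitters' processing notes name bcl2fastq, STAR, Subread, featureCounts, Salmon and DESeq2 and the builds GRCm38, GRCh38 and mm10, with no role or order. The deposited signal values are normalized by the authors: each library has its reads per gene divided by a single size factor. Every value was a whole multiple of the smallest step of its library within 0.01 reads, and multiplying back gave reads for edgeR and DESeq2. In 2 libraries (β-catenin KO low CHIR from date 2 and α-catenin KO high CHIR from date 3) the factor lies near 1, and the check says little. The deposited comparison tables hold the authors' log2 fold changes and p-values, which were not used. They gave symbols for 4316 of 31130 genes, all past the authors' thresholds.

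Log2(normalized count + 1) was fitted in R 4.3.3 with limma 3.58.1 (1 mean per group, mean-variance trend, Benjamini-Hochberg adjustment) on genes with a mean of at least 10, over the 14 libraries without β-catenin KO or, where it was compared, over all 20. Responses were compared by interaction terms. Exact permutation tests used Python 3.11.15 and numpy 2.4.6. Code was tested on simulated data. Alternatives were no filter, a minimum mean of 100, a pseudocount of 0.25 or of 5, quantile normalization, edgeR 4.0.16, DESeq2 1.42.0, only the groups compared, all 20 libraries, each library left out, and label date as a block. Libraries with the same number were taken as paired because their titles share a date. Their deviations from group means had r of 0.02 to 0.72 over 58 pairs, against -0.59 to 0.35 over 116 pairs of different dates. Named genes were the members, listed cadherins, catenins, mesenchymal, shedding and state genes, and the 5 nearest profiles. The members and lists were chosen with earlier results of these data known. Cdh2 was placed by chromosome only, and sequences from chromosome 18 are not printed.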

Additional observations from a re-analysis of the deposited data

How the results depend on the processing

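Over 478 alternative values for the 30 results, 450 kept their direction and their side of the threshold. The exact test of Cdh11 in QCKO over both CHIR conditions gave -1.10 with the replicate block by label date (4 pairs, exact permutation p = 0.125, which could not be lower), and -1.37 to -0.99 with each library left out. Those 4 pairs come from dates 2 and 3 only and are not independent. With the same block, limma called Cdh11 in β-catenin KO against CTRL in high CHIR (0.74), and Cdh2 in α-catenin KO against CTRL in low CHIR turned to -0.066. The block changed no other call of either gene. That last value, 0.00 as reported, was -0.056 with edgeR and -0.068 with DESeq2. DESeq2 called Cdh11 in QCKO against CTRL in high CHIR (-1.33). With only the groups compared, limma did not call Cdh2 in CTRL (-1.23) and did call it in QCKO (-0.91) for high against low CHIR.

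With 1 library left out at a time, values for high against low CHIR were -1.59 to -0.94 for Cdh2 in CTRL, and for Cdh11 -1.89 to -1.41 in α-catenin KO and -1.86 to -1.09 in QCKO, with the calls lost as given above. An arm left with 1 library was assumed to vary like the other groups. Values that were not called crossed 0 for Cdh2 in α-catenin KO against CTRL (-0.32 to 0.25 in low CHIR, -0.038 to 0.62 in high CHIR), in its difference in response (-0.039 to 0.62), in QCKO against CTRL in high CHIR (-0.57 to 0.084) and in β-catenin KO against CTRL in low CHIR (-0.53 to 0.19). They did so for Cdh11 in α-catenin KO against CTRL in high CHIR (-0.46 to 0.021), in β-catenin KO against CTRL in low CHIR (-0.19 to 0.37) and in the difference in response of QCKO (-0.74 to 0.025). Others moved by over 1.5 times with the same sign: Cdh11 in α-catenin KO against CTRL in low CHIR (0.090 to 0.55), the differences in response of Cdh11 in α-catenin KO (-0.78 to -0.30), of Cdh2 in QCKO (0.025 to 0.68), and of Cdh2 (0.44 to 1.18) and Cdh11 (0.37 to 0.93) in β-catenin KO, and the log2 ratio of Cdh11 to Cdh2 between CHIR conditions (-0.55 to -0.20), besides those given above. The cause of these changes was not tested.

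Counts of called genes, the background above, moved more. For high against low CHIR, CTRL had 1760 called genes (761 with only the groups compared, 1053 to 2986 with 1 library left out, 2556 with the block), α-catenin KO 725 (281 to 496, 1186 with the block) and QCKO 814 (368 to 399, 1278 with the block, 1855 with only the groups compared). β-catenin KO against CTRL in high CHIR had 1757 (240 to 3060 over these settings). What limits these counts was not tested.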
